A study of Mus musculus with 6 samples.

Results

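Interferon signalling was followed through 9 genes in the lacrimal gland of NOD/Ltj and ICR mice: the ligand Ifng, the receptor chains Ifngr1 and Ifngr2, the signal transducer Stat2, the interferon regulatory factors Irf1, Irf7, Irf8 and Irf9, and the feedback inhibitor Socs1. They were taken by name from a table of 55401 gene identifiers, and all 9 were found and were among the 18537 genes with enough counts to be tested. Ifng and Socs1 passed that filter through their counts in the NOD/Ltj libraries. Messenger RNA of the gland was sequenced in 3 samples from ICR mice, an outbred stock that served as the control, and in 3 from NOD/Ltj mice, an inbred strain whose exocrine glands become inflamed spontaneously, as in Sjögren's syndrome. No treatment, age or sex is given for either group, and the labels do not state that the 3 samples of a strain are 3 animals, so the p-values rest on a spread that may be technical.

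Interferon-γ, made mainly by T cells and natural killer cells, binds a receptor of the Ifngr1 and Ifngr2 chains and signals through the kinases Jak1 and Jak2 to gamma-activated sites (GAS) in promoters such as that of Irf1. Type I interferons bind Ifnar1 and Ifnar2 and act through Jak1 and Tyk2 on a complex that includes Stat2 and Irf9 and binds interferon-stimulated response elements (ISRE) and induces, among others, Irf7. Socs1 blocks the receptor-bound kinases and closes the loop. In glands of patients with Sjögren's syndrome both arms are known as signatures of inflammation.

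Promoter sequences of the 9 genes were searched for the letters of these 2 elements, and 4 stretches with a match are shown. They cover 250 bases before to 50 bases after each start in RefSeq on build GRCm38.p6, and the 9 genes had 12 such windows. The ISRE core was searched as GAAANNGAA on both strands and the GAS as TTCNNNGAA, which reads the same on both strands. Socs1 and Stat2 held the ISRE core, and Ifng, Irf1 and Irf8 held the GAS, so that 2 and 3 of 12 windows had a match, against 8.56 and 8.30% of all 32851 windows. The GAS letters of Ifng lay near the far end of its window. The 4 stretches below run 5′ to 3′ on the strand of the gene, with the matching letters in capitals.
Irf1 (chr11:53769879-53769977, plus strand, from 135 bases before the start): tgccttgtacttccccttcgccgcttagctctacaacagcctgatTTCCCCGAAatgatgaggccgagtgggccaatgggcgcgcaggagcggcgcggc
Irf8 (chr8:120736142-120736258, plus strand, from 216 bases before the start): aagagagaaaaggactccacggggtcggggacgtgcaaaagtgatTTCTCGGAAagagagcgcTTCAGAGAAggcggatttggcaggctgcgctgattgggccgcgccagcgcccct
Socs1 (chr16:10785560-10785664, minus strand, from 128 bases before the start): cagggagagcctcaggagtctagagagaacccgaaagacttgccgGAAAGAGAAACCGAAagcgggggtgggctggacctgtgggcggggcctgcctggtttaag
Stat2 (chr10:128270248-128270330, plus strand, from 250 bases before the start): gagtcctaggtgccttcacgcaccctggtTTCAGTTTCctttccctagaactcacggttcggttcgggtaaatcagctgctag
Irf1 held 1 GAS match, TTCCCCGAA, 90 bases before its start, and Irf8 held 2, TTCTCGGAA and TTCAGAGAA, at 171 and 153 bases. In Socs1, 2 ISRE core matches overlapped, starting 83 and 77 bases before the start, and the match in Stat2 was on the opposite strand. A match of letters is no evidence of binding. Over all tested genes with a window, 4.44% of the 1126 with an ISRE core were called higher in NOD/Ltj, as were 2.88% of the 1041 with a GAS and 1.96% of all 12497; these shares were not tested.

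Libraries held between 58426580 and 76554340 estimated counts. ICR 1 was rich in macrophage transcripts: its 13 macrophage and monocyte markers summed to 319 CPM (the usual per-library count unit, here on TMM-scaled library sizes), against 87.4 and 106 in ICR 2 and ICR 3. In ICR 3 and NOD 2 a list of salivary, Harderian and muscle markers summed to 10827 and 1796 CPM, against 48.9 to 1051 in the other libraries. Acinar and ductal markers of the gland, among them the water channel Aqp5 (71.5 to 108 CPM), were present in all 6 libraries. In such bulk samples fewer cells of a type and less RNA per cell cannot be told apart.

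None of the 9 genes passed the edgeR quasi-likelihood test at an adjusted p under 0.05, where 2.24% of all genes tested did and 1.88% were called higher. All but Ifngr2 had positive log2 fold changes, as did 47.0% of all genes, and the median of the 9 was 0.94 against −0.03 over all genes. At an unadjusted p under 0.05, 5 of the 9 were higher (Irf8, Irf7, Socs1, Stat2 and Irf1) and 0 lower, with a background of 8.00% higher and 5.05% lower. DESeq2 called Irf8, Irf7 and Socs1 higher (background 4.84% higher) and limma-voom called 0 (background 0.664% higher). In 6 of the 9 the 3 NOD/Ltj libraries lay above all 3 ICR libraries, against 11.2% of all genes. For Ifng, 1 of these 6, only the scaling set ICR 1 (16 counts) below NOD 1 (15 counts). Ifng and Socs1 were tested only through their NOD/Ltj counts, so that their positive difference was favoured by the filter. Of the other 7 genes, 4 (Stat2, Irf7, Irf8 and Irf9) did not overlap, 4 were higher at an unadjusted p under 0.05, and the median log2 fold change was 0.87. The 9 genes were chosen with earlier results of these data known, so their shares beside those of all genes are a description and no independent result.

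**Figure D1:**
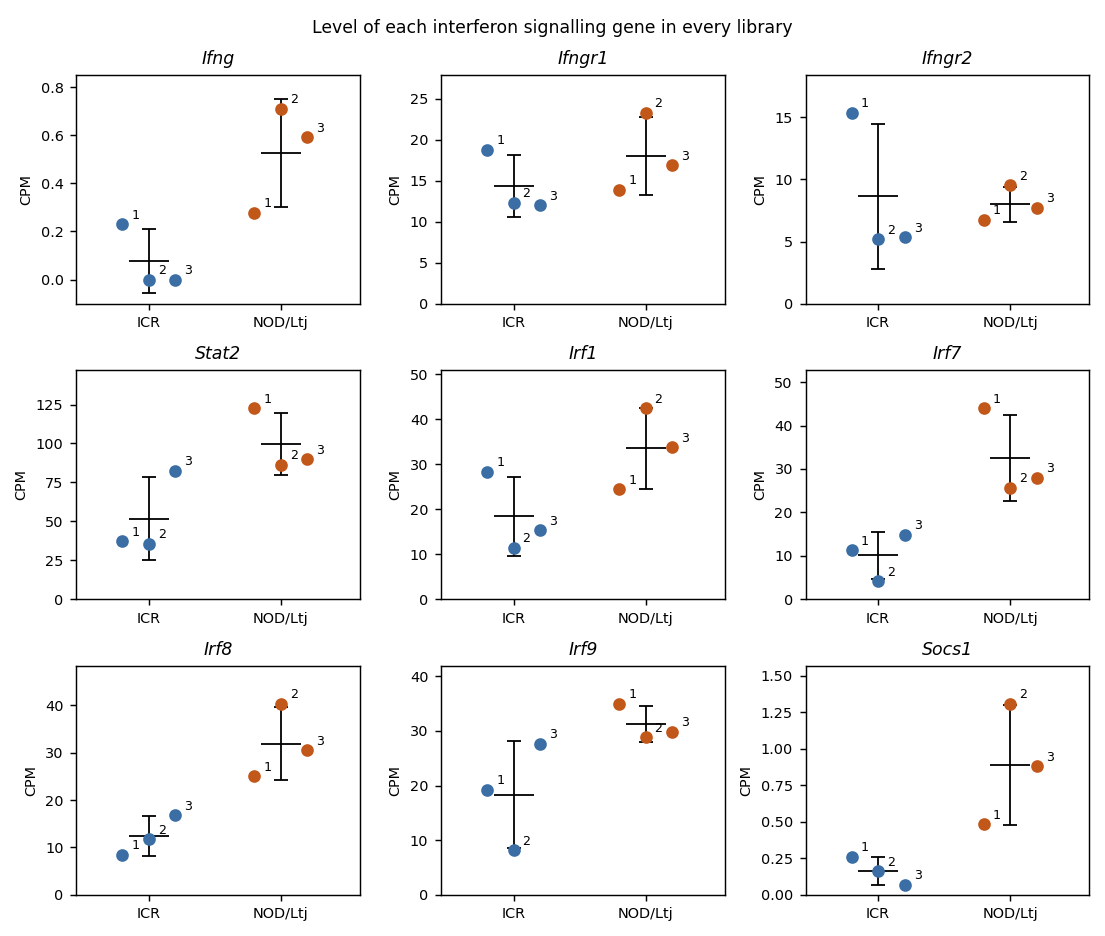
Level of each of the 9 genes in CPM (linear axis) in the 3 ICR and 3 NOD/Ltj libraries; numbers are replicates, the wide line is the mean and the bar the SD. The strains are apart in Stat2, Irf7, Irf8, Irf9 and Socs1 and overlap in Irf1, Ifngr1 and Ifngr2. In Ifng, ICR 1 (0.231 CPM) and NOD 1 (0.278 CPM) are apart only by the scaling.

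The ligand was scarce in both strains. Ifng had 16, 0 and 0 counts in ICR 1, 2 and 3 and 15, 57 and 39 in NOD 1, 2 and 3. If 1 fragment gave about 4 counts, as was assumed, these were few fragments, and a library at 0 may still hold up to 12 counts (counting error only). In CPM it stood at 0.231, 0 and 0 in ICR and 0.278, 0.710 and 0.591 in NOD/Ltj, so that ICR 1 lay just under NOD 1. Ifng overlaps Gm49751 on the same strand, which had 0 CPM throughout ICR and 0.0185, 0.299 and 0.0151 in NOD 1, 2 and 3. Reads of the shared stretch may have been counted for either gene. The log2 fold change of Ifng, 2.71 ± 1.37 (SE, adjusted p = 0.479), had a 95% interval from −0.49 to 5.90. Without ICR 1, where both remaining ICR libraries were at 0, the adjusted p was 0.0525. Of 20 other interferon genes, among them Ifnb1, the α family, Ifne, Ifnk and the λ genes, 19 were at 0 counts in every library, and Ifnz had at most 2. Apart from these few counts of Ifnz, transcripts of the listed type I and type III interferons were thus not detectable at this depth.

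The receptor chains differed least. Ifngr1, which binds the ligand, stood at 18.8, 12.3 and 12.0 CPM in the ICR samples and 13.9, 23.3 and 16.9 in NOD/Ltj. The range of one strain lay largely within the other, with ICR 1 above 2 of 3 NOD/Ltj libraries. Its fold difference was 1.25 with a 95% interval from 0.818 to 1.92 (adjusted p = 0.701), so a difference of more than 1.92-fold lay outside the interval. Ifngr2, the chain that brings in Jak2, stood at 15.4, 5.19 and 5.33 CPM in the ICR samples and 6.76, 9.54 and 7.73 in NOD/Ltj. ICR 1 was the highest of all 6 libraries and the other ICR libraries were the lowest. Its log2 fold change was −0.11 ± 0.44 (SE, adjusted p = 0.959), and 0.59 without ICR 1 (adjusted p = 0.261). The macrophage markers were also highest in ICR 1; their part in these values was not tested.

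Among the other receptor chains, Ifnar1 of the type I receptor had 8.91, 12.6 and 13.7 CPM in the ICR samples and 18.5, 23.2 and 19.6 in NOD/Ltj. The strains did not overlap, and the difference was 1.74-fold (95% interval 1.24 to 2.45, adjusted p = 0.127). Ifnar2 (log2 fold change 0.55, adjusted p = 0.382), Il10rb (0.52, adjusted p = 0.547) and Ifnlr1 (0.13, adjusted p = 0.923), the last 2 forming the type III receptor, had smaller differences and overlapping strains. Thus 0 of 6 receptor chains were called by edgeR, and 2 were higher at an unadjusted p under 0.05 (DESeq2 called Ifnar1, and limma-voom called 0). Without ICR 1 edgeR called Il10rb (adjusted p = 0.0401).

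Receptor-bound kinases lay higher in every NOD/Ltj library than in any ICR library, as did 11.2% of all genes, without passing the test. The gap was narrow for Tyk2 (18.0 CPM in NOD 1, 17.9 in ICR 3). It was also narrow for Jak1 (62.7 in NOD 1, 61.4 in ICR 1) and Jak3 (6.30 and 6.08 in the same libraries). Before scaling, Jak1, Jak2 and Jak3 had more counts in ICR 1 (4248, 998 and 421) than in NOD 1 (3386, 901 and 340). Tyk2 had 1026 in ICR 3 and 970 in NOD 1, so the separation rested on the scaling. Jak3, the kinase of lymphocyte cytokine receptors, had a log2 fold change of 1.40 ± 0.39 (SE, adjusted p = 0.159). Jak2 had 0.92 ± 0.29 (SE, adjusted p = 0.217), Jak1 0.54 ± 0.22 (SE, adjusted p = 0.364) and Tyk2 0.45 ± 0.18 (SE, adjusted p = 0.36). All 4 were higher at an unadjusted p under 0.05 (8.00% of all genes were), while edgeR called 0, DESeq2 called Jak3 and limma-voom called 0.

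Of the signal transducers, the member Stat2 stood at 37.3, 35.6 and 82.5 CPM in the ICR samples and 122.6, 86.4 and 90.1 in NOD/Ltj. ICR 3 came close to the lowest NOD/Ltj library, and ICR 1 and ICR 2 were far below. Its log2 fold change was 0.94 ± 0.36 (SE, adjusted p = 0.319), and 1.45 without ICR 3 (adjusted p = 0.064). Stat4, which carries interleukin-12 signals in T cells and natural killer cells, rose from 0.029, 0.355 and 0.087 to 2.5, 8.21 and 5.62 CPM (log2 fold change 5.11 ± 0.88 SE, adjusted p = 0.0323). That call ended without ICR 3, NOD 2 or NOD 3 (adjusted p 0.126, 0.133 and 0.139) and by limma-voom (0.133), and the value rested on 2, 22 and 5 counts in ICR, so that Stat4 too passed the filter through NOD/Ltj.

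Of the 6 STAT genes described, only Stat4 was called. Stat3, Stat5a, Stat5b and Stat6 had log2 fold changes between −0.06 and 0.14 with adjusted p of at least 0.838. Their intervals reached at most 1.57-fold higher (Stat3).

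**Figure D2:**
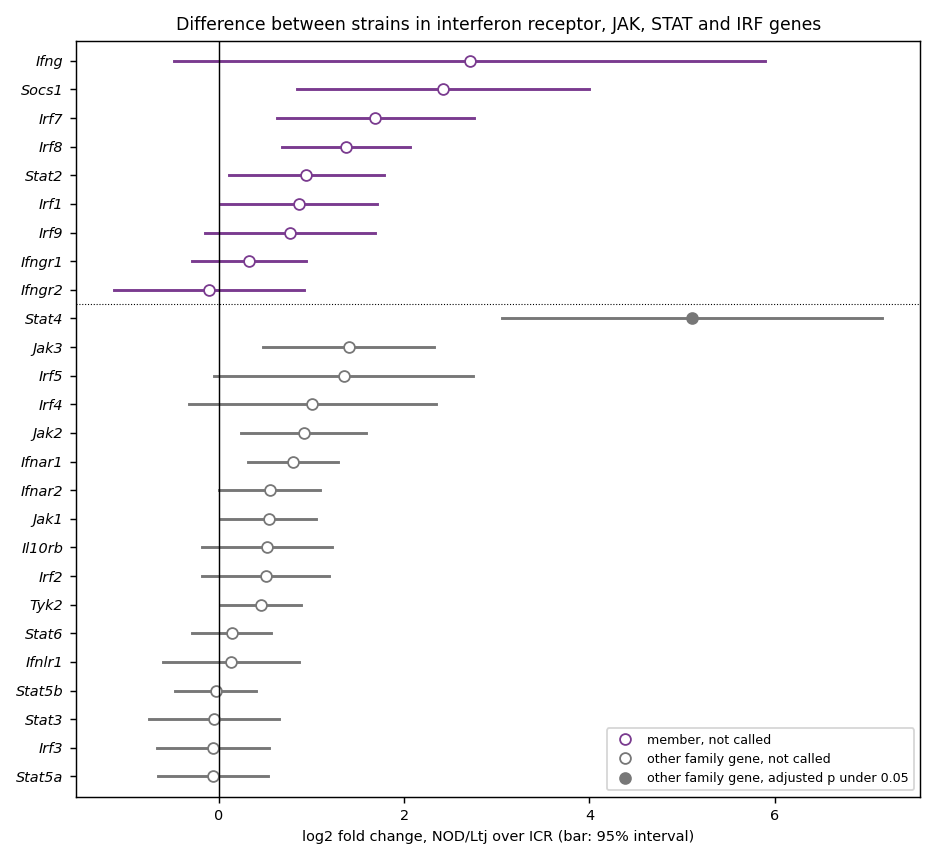
Log2 fold change of NOD/Ltj over ICR with its 95% interval for the 9 genes (purple) and the other receptor, kinase, STAT and IRF genes (grey); filled points passed an adjusted p under 0.05. Of those drawn, only Stat4 (5.11) passed.

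Among the interferon regulatory factors, Irf8 and Irf7 had clearly separate strains and smaller adjusted p than Irf1 and Irf9. Irf8, which directs the development of dendritic cells and monocytes and acts in B cells, stood at 8.49, 11.7 and 16.8 CPM in the ICR samples and 25.0, 40.3 and 30.5 in NOD/Ltj. The strains were well apart, with NOD 2 highest and ICR 1 lowest. The difference was 2.59-fold (95% interval 1.61 to 4.17), and its adjusted p of 0.0682 was the smallest of the 9. It ranged from 0.0706 to 0.269 with 1 library left out. DESeq2 gave an adjusted p of 0.00148 and limma-voom 0.0731.

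Irf8 is also a gene of B cells, dendritic cells and macrophages, so the markers of these cells are given beside it. The 10 B cell markers summed to 3.94 to 7.45 CPM in the ICR samples and 128 to 534 in NOD/Ltj, and 9 of 10 were called higher (0 of them when NOD 3 was left out, and 6 when ICR 2, ICR 3 or NOD 2 was; limma-voom called 3). Of 12 dendritic cell markers, 2 were called higher (Ccr7 and Ccl22), against 1.88% of all genes. None was called when any library other than NOD 1 was left out or with limma-voom, while DESeq2 called 6. At an unadjusted edgeR p under 0.05, 8 of the 12 were higher and 1 was lower (8.00 and 5.05% of all genes). The dendritic cell sums were 10.3 to 17.0 CPM in the ICR samples and 25.0 to 53.8 in NOD/Ltj. Of 13 macrophage and monocyte markers 0 were called by edgeR, with 4 higher at an unadjusted p under 0.05 (1 called by DESeq2 and 0 by limma-voom). Without ICR 1, Fcgr1, C1qa, C1qb and C1qc of this list were called. Their sums overlapped (87.4 to 319 in ICR and 181 to 274 in NOD/Ltj). No marker of these 3 lists was at 0 throughout a strain. The part of these cells in the value of Irf8 was not tested.

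Irf7, the factor that amplifies type I interferon and is itself induced by it, stood at 11.4, 4.09 and 14.9 CPM in the ICR samples and 44.0, 25.7 and 28.0 in NOD/Ltj. The highest ICR library lay well below the lowest NOD/Ltj library. The difference was 3.22-fold (95% interval 1.54 to 6.75, adjusted p = 0.14), with a DESeq2 adjusted p of 0.00561. Irf7 overlaps Phrf1 on the opposite strand, and the strand setting of the counting is not given in the sources used here. Phrf1 had 15.6 to 24.2 CPM in the ICR samples and 19.6 to 25.2 in NOD/Ltj, ranges that overlapped.

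Irf1, a classical early target of interferon-γ and the factor behind many interferon-γ responses, stood at 28.4, 11.5 and 15.4 CPM in the ICR samples and 24.5, 42.5 and 33.8 in NOD/Ltj. ICR 1 lay above NOD 1, so the strains overlapped. The log2 fold change was 0.87 ± 0.36 (SE, adjusted p = 0.369), and 1.31 without ICR 1 (adjusted p = 0.0634). Irf9, the DNA-binding part of the complex with Stat2, stood at 19.2, 8.19 and 27.7 CPM in the ICR samples and 35.0, 28.8 and 29.9 in NOD/Ltj. ICR 3 came close to NOD 2, and ICR 2 was far below. The difference was 1.70-fold (95% interval 0.901 to 3.21, adjusted p = 0.487). Irf9 overlaps Rnf31 on the same strand, which had 12.4, 11.5 and 21.2 CPM in the ICR samples and 26.9, 21.01 and 19.5 in NOD/Ltj, so reads of the shared stretch may have been counted for either gene.

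Of the 8 IRF genes described edgeR called 0, with 3 higher at an unadjusted p under 0.05, while DESeq2 called 2 higher (Irf7 and Irf8) and limma-voom 0. Of the 4 that are not among the members, Irf5 (log2 fold change 1.35, adjusted p = 0.403), Irf4 (1.01, adjusted p = 0.536) and Irf2 (0.50, adjusted p = 0.548) had positive values. Irf3, the constitutive factor that starts type I interferon production, stood at 44.1 ± 15.3 CPM in the ICR samples and 42.2 ± 4.49 in NOD/Ltj (SD, n = 3 each, edgeR adjusted p = 0.96). Per length, Irf7 was 0.320, 0.0968 and 0.221 times Irf3 in ICR and 0.887, 0.632 and 0.574 times in NOD/Ltj, ranges that did not overlap. Irf1 against Irf2, its competitor for the same sites, gave 3.997, 2.88 and 4.03 in ICR and 4.32, 5.00 and 4.85 in NOD/Ltj, again without overlap. The other 2 ratios computed, Irf9 over Stat2 and Ifngr1 over Ifngr2, had overlapping strains, and none of the 4 was tested.

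Socs1, which inhibits the Janus kinases at the interferon receptors, was near the detection limit in ICR with 18, 10 and 4 counts, against 26, 105 and 58 in NOD/Ltj. This gave 0.260, 0.162 and 0.070 CPM in the ICR samples and 0.481, 1.31 and 0.879 in NOD/Ltj, with every NOD/Ltj library above every ICR library. The difference was 5.35-fold (95% interval 1.79 to 15.99, adjusted p = 0.156), with a DESeq2 adjusted p of 0.0235 and 0.258 by limma-voom. Of 17 inhibitors including Socs1, only Ptpn6 was called, the SHP-1 phosphatase of blood cells, which went from 13.8 ± 2.87 to 42.0 ± 15.0 CPM (SD, n = 3 each, edgeR adjusted p = 0.0413). Its call was kept only without NOD 1 (0.0203) and ended in the other 5 reduced fits (0.0741 to 0.185), with library totals as the scaling (0.0971) and with limma-voom (0.0635). Socs3 (log2 fold change 1.73, adjusted p = 0.15) and Usp18, the brake on the type I receptor (1.24, adjusted p = 0.464), did not pass, though Socs3 was called without ICR 1 (0.0284).

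**Figure D3:**
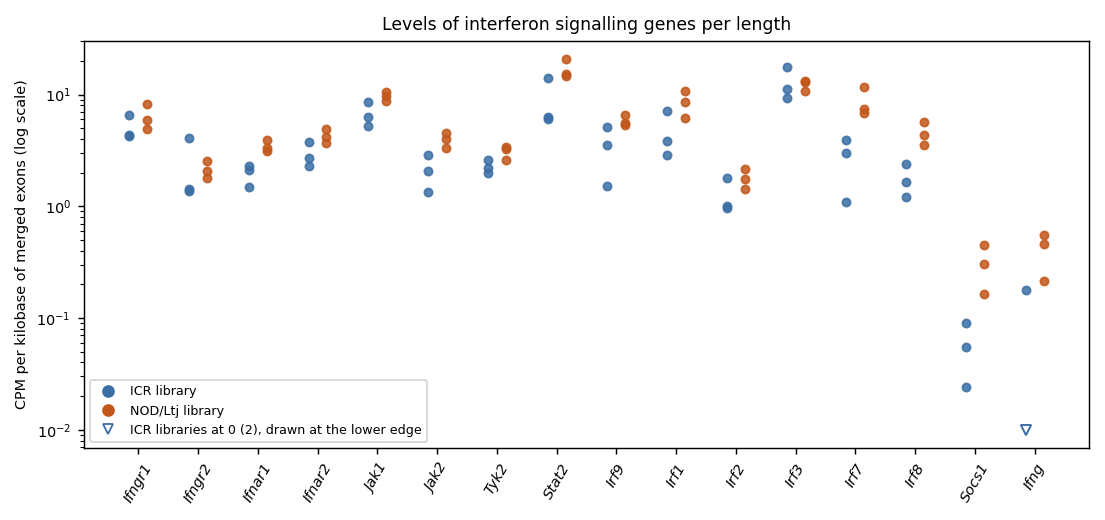
Level of interferon signalling genes per kilobase of merged exons (log axis) in each library, with ICR in blue and NOD/Ltj in orange; open triangles mark the 2 ICR libraries without Ifng. Stat2 had the highest mean of the 9 genes in both strains, though Irf1 and Ifngr1 exceeded it in ICR 1, and Ifng and Socs1 were the lowest.

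Compared per length, as CPM per kilobase of merged exons, Stat2 had the highest mean of the 9 in both strains with 8.74 ± 4.49 for ICR against 16.8 ± 3.36 for NOD/Ltj (SD, n = 3 each). Its ICR mean was raised by ICR 3 (13.9), and in ICR 1 Irf1 (7.14) and Ifngr1 (6.59) exceeded Stat2 (6.30). In ICR it was followed by Ifngr1 (5.04 ± 1.34), Irf1 (4.63 ± 2.23), Irf9 (3.41 ± 1.82), Irf7 (2.67 ± 1.45), Ifngr2 (2.29 ± 1.55) and Irf8 (1.75 ± 0.59). Each of these neighbours differed by less than the larger of their SDs. Ifng (0.059 ± 0.103) and Socs1 (0.056 ± 0.033) were far below. In NOD/Ltj, Irf7 took the second place with 8.62 ± 2.64, beside Irf1 with 8.44 ± 2.26, from which it differed by less than the SD. Then came Ifngr1 (6.33 ± 1.69), Irf9 (5.80 ± 0.61), Irf8 (4.53 ± 1.10) and Ifngr2 (2.13 ± 0.37). Ifngr1 differed from each of Irf7, Irf1 and Irf9 by less than the larger SD of the pair. Ifng (0.406 ± 0.172) and Socs1 (0.306 ± 0.142) were again last and within an SD of each other.

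Within NOD/Ltj the 9 genes followed 2 orders, and within ICR more. In Stat2, Irf7 and Irf9 the NOD/Ltj libraries ranked NOD 1, NOD 3, NOD 2 from high to low, and the ICR libraries ranked ICR 3, ICR 1, ICR 2 in each of them. In Ifng, Ifngr1, Ifngr2, Irf1, Irf8 and Socs1 the order was NOD 2, NOD 3, NOD 1. These were also the most frequent orders over all genes, held by 23.0 and 23.9% of the 18473 genes without ties. The T cell markers summed to 34.9, 104 and 80.0 CPM in NOD 1, 2 and 3 and the B cell markers to 128, 534 and 360, which is the order of the latter 6 genes. In ICR the B cell sum was lowest in ICR 1 (3.94 CPM), where 5 of these 6 genes were highest. The targets of type I interferon summed to 608, 540 and 497 CPM in NOD 1, 2 and 3 and 311, 118 and 251 CPM in ICR 1, 2 and 3. Like Stat2, Irf7 and Irf9 this sum was highest in NOD 1, but it was highest in ICR 1, not ICR 3. In ICR the Ifngr1, Ifngr2, Irf1, Ifng and Socs1 values were highest in ICR 1, the library with the highest macrophage sum, and Irf8 was lowest there. Stat2, Irf7, Irf8 and Irf9 were highest in ICR 3, which had the highest salivary, Harderian and muscle sum (10827 CPM). In NOD/Ltj that sum was highest in NOD 2 (1796 CPM), where Irf8 was highest and Stat2, Irf7 and Irf9 were lowest. Whether cell content or the tissues of that sum account for either order was not tested.

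**Figure D4:**
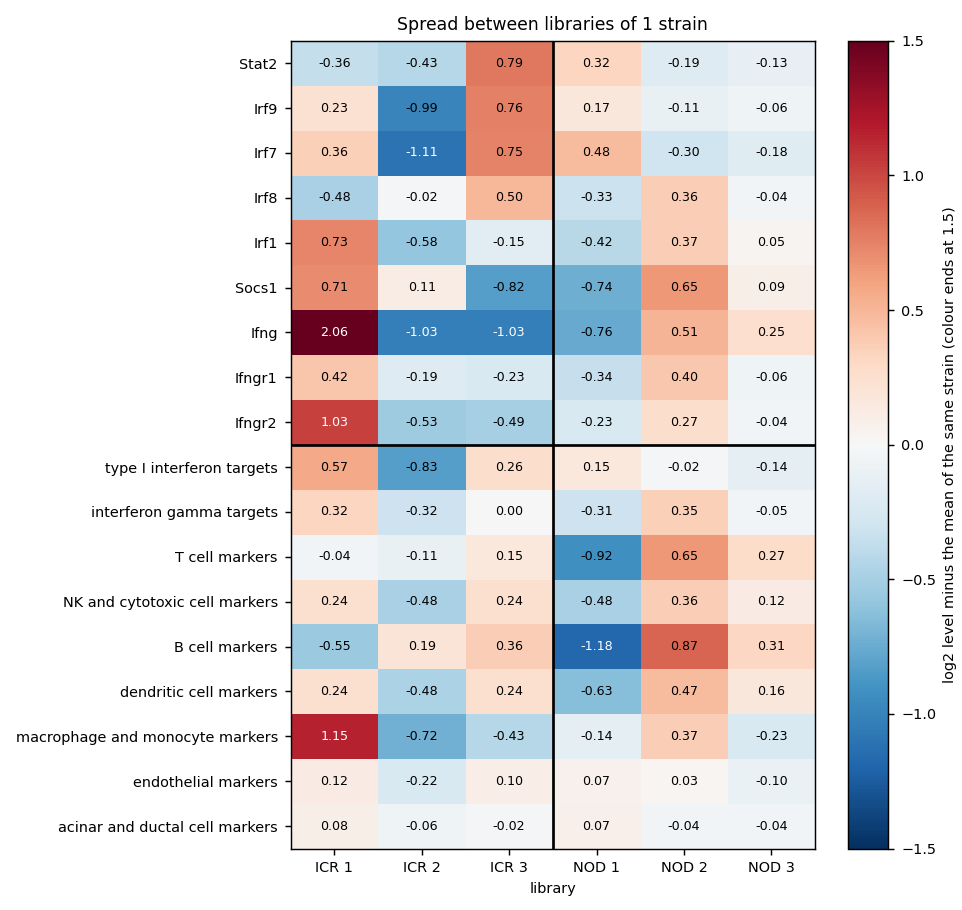
Log2 level in each library minus the mean of the 3 libraries of the same strain, for the 9 genes (top) and for summed marker and target lists (bottom). In NOD 1, Stat2, Irf9 and Irf7 were above their strain mean (0.32, 0.17 and 0.48) and the other 6 genes, T cell markers (−0.92) and B cell markers (−1.18) below it.

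Genes outside the 9 with the nearest pattern were sought by the root mean square difference in log2 CPM over the 6 libraries, each gene centred on its own mean. The rule for this had covered called members only, of which there were none, and was widened to others after their values were seen. Nearest to Irf1 was Tapbp, a chaperone of MHC class I peptide loading, at a distance of 0.04. Stat2 was nearest to Adar, an RNA-editing enzyme, at 0.12. Irf7 was nearest to Oasl1, an antiviral protein, at 0.14, and Irf8 to the kinase Mast3 at 0.13. The 3 nearest to Ifngr1 included Actb, the cytoskeletal actin (0.07), and Ifngr2 was nearest to Npc2, a lysosomal sterol carrier, and Tgfbr2, a receptor of TGF-β (0.06 each). Irf9 was nearest to the pseudogene Rpl12-ps1 (0.10), Socs1 to AI662270 (0.17) and Ifng to Adam6b (0.27).

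Upstream of Ifng, against a background of 1.88% of all genes called higher, so were 3 of 15 tested genes that drive its production. They were Il18r1, a chain of the interleukin-18 receptor (2.5 ± 0.26 to 11.1 ± 2.88 CPM), Il21r, the interleukin-21 receptor (0.792 ± 0.328 to 9.85 ± 4.42 CPM, SD, n = 3 each, edgeR adjusted p = 0.0108 and 0.0161) and Stat4, given above. DESeq2 called 9 of the list higher (background 4.84%) and limma-voom 1 (background 0.664%). The call of Il18r1 ended without NOD 2 or NOD 3 (0.0542 and 0.068), and that of Il21r without ICR 2, ICR 3, NOD 2 or NOD 3 (0.0553 to 0.089) and by limma-voom (0.0554). Il12b, a chain of interleukin-12, had 0 counts in all ICR libraries and 26, 27 and 18 in NOD/Ltj (adjusted p = 0.0512). It passed the filter only through its NOD/Ltj counts, so that a positive difference was favoured. Il12a had 0, 4 and 0 counts in the ICR samples and 10, 98 and 66 in NOD/Ltj, and did not pass the filter on low counts. Tbx21, the factor of T helper 1 cells, had a log2 fold change of 2.11 (adjusted p = 0.487). T cell markers, which mark likely producers, were called higher in 5 of 12, and NK and cytotoxic markers in 1 of 12 (Ctsw), beside 1.88% of all genes. Without NOD 3 these were 0 and 0, and limma-voom called 0 of the T cell list.

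Sensors that lead to type I interferon had 0 of 15 called by edgeR, DESeq2 or limma-voom. At an unadjusted edgeR p under 0.05, 6 were higher (8.00% of all genes). In 6 every NOD/Ltj library lay above every ICR library (11.2% of all genes). In 12 the log2 fold change was positive (47.0% of all genes), and the median of the list was 0.66 against −0.03 over all genes. Without ICR 1 the receptor Tlr7 was called (0.0261). The kinase Ikbke had the smallest adjusted p (0.175) with a log2 fold change of 0.74, and Irf3, Tbk1 and Myd88 lay between −0.06 and 0.19.

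Downstream, many targets of interferon-γ rose. Of 29 tested, 13 rose, against 1.88% of all genes, and 16 were not called, with a median log2 fold change of 2.01 against −0.03 over all genes. The target lists, like the members, were chosen with earlier results of these data known, so these shares are a description only. Cxcl9, a T cell chemokine, had the smallest adjusted p (5.23 ± 0.29, adjusted p = 0.00139), followed by the GTPase Iigp1 (2.90), the chemokine Cxcl10 (3.38) and the GTPase Igtp (3.09). Without NOD 2 and NOD 3 in turn, 4 and 2 of the list were called, with 6 and 7 without ICR 3 and ICR 2, and 19 without ICR 1. DESeq2 called 19 of it, and 9 were called by limma-voom or with library totals as the scaling. The calls of Cxcl9 and Iigp1 held in all 6 reduced fits, that of Cxcl10 ended without NOD 3 (0.0649) and that of Igtp without NOD 2 or NOD 3 (0.0545 and 0.0698). Of 28 targets of type I interferon, 4 rose and 24 were not called, with a median of 1.39 (DESeq2 called 12 and limma-voom 3). These were Samd9l, an antiviral restriction factor (2.76), Mx1, an antiviral GTPase (3.42), Rsad2, an antiviral enzyme (2.15), and Zbp1, a nucleic acid sensor (2.17). With 1 library left out, 0 (without NOD 2 or NOD 3) to 10 (without ICR 1) of this list were called. Samd9l also lost its call without ICR 3 (0.0635), Rsad2 and Zbp1 lost theirs in every reduced fit except that without ICR 1, Rsad2 with limma-voom (0.0533) and Zbp1 with library totals (0.102). Many genes of either list respond to both kinds of interferon, and the difference between the lists was not tested. Fcgr1 of the interferon-γ targets is also 1 of the macrophage and monocyte markers. The B cell markers had a median log2 fold change of 6.09. The part of cell content in the values of either target list was not tested.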

How the data were processed

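The authors deposited 1 table of estimated counts per gene for 6 libraries, held as whole numbers and not scaled. Per the submitters' processing notes the tools included StringTie, fastp and edgeR, with no roles stated. Aligner, build, annotation and strand setting: not given in the sources used here. Of low values (1 to 40), 30.9% were multiples of 4, a modest excess over the 1 in 4 of an even spread. On this limited ground 1 fragment was assumed to give about 4 counts. Values of 1 and 2 counts also occurred (Ifnz). The test had been planned for counts and was kept. Symbols came from GENCODE M21 (55141 of 55401 identifiers matched), which also gave exon lengths and overlaps.

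Differences were tested with edgeR 4.0.16 (R 4.3.3): TMM scaling, filterByExpr, quasi-likelihood test, two-sided, Benjamini-Hochberg adjustment over 18537 genes, called at an adjusted p under 0.05. SE is the log2 fold change over the square root of F; 95% intervals use the t distribution. Alternatives were other scalings and filters, DESeq2 1.42.0, limma-voom (limma 3.58.1), a replicate block, counts divided by 4, and leaving out each library. Named were all members, the receptor, kinase, STAT and IRF genes (some are not reported here), and up to 4 called genes of each other pathway list. Il12a, Il12b, Tbx21, Socs3, Usp18, the sensors and the marker genes were named after their values were seen. Members and lists were chosen with earlier results of these data known.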

Additional observations from a re-analysis of the deposited data

How the results depend on the processing

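No member was called under any scaling, filter, the replicate block, counts divided by 4 or with any library left out; DESeq2 called 3. Over all genes, 349 were called higher and 67 lower; library totals alone as the scaling gave 226 and 40, DESeq2 898 and 285, limma-voom 123 and 20, the filter of 5 CPM in 3 libraries 162 and 35, and the replicate block 129 and 25. With 1 library left out, 11 (without NOD 3) to 406 genes were higher and 2 (without NOD 3) to 118 lower. Scaling by library totals moved the median log2 fold change of all genes from −0.03 to 0.09. Same-numbered libraries had correlations of deviations of −0.12, −0.15 and 0.07, so the numbers were not taken as pairs. Ifngr2 changed sign with limma-voom (0.063) and the replicate block (0.092). With library totals, Stat3 (0.022), Stat5a (0.094), Stat5b (0.10) and Irf3 (0.076) changed sign, as did Stat3 with limma-voom (0.010) and the replicate block (0.014); the cause was not tested. With 1 library left out, log2 fold changes ranged from −0.37 to 0.59 (Ifngr2), −0.13 to 0.47 (Ifnlr1), −0.27 to 0.32 (Stat3), −0.29 to 0.10 (Stat5a), −0.18 to 0.044 (Stat5b) and −0.26 to 0.25 (Irf3). The replicate block ended the calls of Ptpn6 (adjusted p = 0.126), Il21r (0.103), Samd9l (0.0648), Rsad2 (0.129) and Zbp1 (0.103). With it 7 targets of interferon-γ and 1 of type I interferon were called. Depth limits Ifng and Socs1, which dropped out of the test with the 5 CPM filter and with counts divided by 4.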
